A study of Drosophila melanogaster with 12 samples.

Results

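miR-11, miR-13b, miR-14 and miR-263a are 4 Drosophila microRNAs known for holding back cell death, and their reads were followed here through small RNA libraries made to study Krimper. The members were every listed sequence that starts with the leading 18 nt of the abundant arm of each microRNA. This gave 50 of the 95922 distinct sequences in the 12 libraries: 17 for miR-11, 11 for miR-13b, 12 for miR-14 and 10 for miR-263a.

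The libraries came from Drosophila melanogaster ovaries (9 libraries) and from OSC, a cultured ovarian somatic cell line (3 libraries). Total small RNA was sequenced from krimp heterozygous (control) and krimp mutant ovaries, whose alleles and ages the labels do not name. RNA bound to the Piwi-family proteins was taken with antibodies: Piwi and Aub from both krimp genotypes, and AGO3 from krimp heterozygous, OregonR wildtype and aub mutant ovaries. The OSC libraries hold RNA bound to ectopically expressed myc-Piwi, myc-Aub or myc-AGO3 in cells with krimp knocked down, with no OSC total RNA and no OSC without the knockdown. Each group is a single library, so the spread between biological samples is unknown and nothing was tested across samples. Intervals are exact 95% intervals that cover counting error only, and reads without molecular identifiers are not independent molecules.

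A microRNA is cut from a hairpin and loaded into an Argonaute protein, in flies mostly AGO1, and it lowers messenger RNAs that pair with its seed, bases 2 to 8 from the 5′ end. Its 3′ end is less fixed than its 5′ end, since it can be trimmed by exonucleases or lengthened by enzymes that add U or A. Piwi-family proteins carry a separate class, the piRNAs, which are longer and silence transposable elements. miR-11 and miR-13b belong to a family of fly microRNAs known to restrain the pro-apoptotic genes reaper, hid, grim and sickle. miR-14 is known as a suppressor of cell death that also acts in fat metabolism and in ecdysone signalling, and miR-263a, also called bereft, is known to limit hid in bristle precursors.

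The sequences that carry the length results are shown for 3 of the microRNAs as the files list them, with T for U, 5′ to 3′, and with the seed in capitals. They are the leading 2 forms of each in krimp heterozygous total RNA.
miR-11, 21 nt: cATCACAGtctgagttcttgc
miR-11, 22 nt: cATCACAGtctgagttcttgct
miR-13b, 23 nt: tATCACAGccattttgacgagtt
miR-13b, 22 nt: tATCACAGccattttgacgagt
miR-263a, 24 nt: aATGGCACtggaagaattcacggg
miR-263a, 23 nt: aATGGCACtggaagaattcacgg

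miR-11 and miR-13b share the seed ATCACAG, and 9 of their leading 18 bases are identical. miR-263a has the seed ATGGCAC. In the gene table provided (Release 6 names), mir-11 lies on chromosome arm 3R inside E2f1, the gene of a cell cycle transcription factor, close to mir-998. miR-13b has 2 genes, mir-13b-1 on 3R beside mir-13a and mir-2c, and mir-13b-2 on X inside CCT2, a chaperonin subunit gene. Reads of the 2 miR-13b genes were not told apart. The miR-263a gene is listed as mir-bft on 2L, inside a long non-coding RNA gene. mir-14 also lies inside a long non-coding RNA gene.

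Libraries are described by listed reads, since the files list only sequences with at least 100 reads, of 20 to 30 nt. The total libraries list 24979879 reads (heterozygous) and 20695092 reads (mutant), and the 10 immunoprecipitates between 116014 and 18821357 reads. A sequence that is not listed could have had up to 99 reads. Levels are given as percentages of listed reads, so a gain elsewhere in a library lowers them. For this reason each level is also set against 53 groups of sequences picked by the limits below, called sharp-start groups, the 4 microRNAs included. A group is all sequences sharing their leading 18 nt. These groups had at least 10000 reads in the 2 total libraries together, a most common length of 20 to 24 nt, a share in the heterozygous Piwi library below 1% of that in total RNA, and at least 95% of overlapping reads starting at the same base. They held 35.5% of listed reads in heterozygous and 27.0% in mutant total RNA, a ratio of 0.759. Their single log2 ratios of mutant to heterozygous share ran from -5.92 to 1.94. Whether the groups other than the 4 microRNAs are microRNAs was not checked.

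In control ovaries miR-11 was the most abundant of the 4 and miR-13b the least, and in krimp mutant ovaries miR-263a took the lead. miR-11 had 309237 reads in heterozygous total RNA, or 1.24% of listed reads (95% interval 1.23 to 1.24). miR-14 had 196735 reads (0.788%, 0.784 to 0.791), miR-263a 169547 (0.679%, 0.676 to 0.682) and miR-13b 42284 (0.169%, 0.168 to 0.171). By reads they ranked 12, 18, 20 and 49 among 19757 groups. In krimp mutant total RNA miR-263a led with 232558 reads (1.12%, 1.12 to 1.13), followed by miR-11 with 182236 (0.881%, 0.877 to 0.885), miR-14 with 156038 (0.754%, 0.750 to 0.758) and miR-13b with 29940 (0.145%, 0.143 to 0.146). All neighbours in both orders differ beyond their counting intervals. Summed, the 4 microRNAs held nearly the same share of listed reads, 2.87% in heterozygous and 2.90% in mutant ovaries. As a share of sharp-start reads the sum was 8.09% and 10.8%, or 1.33-fold higher in the mutant.

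**Figure D1:**
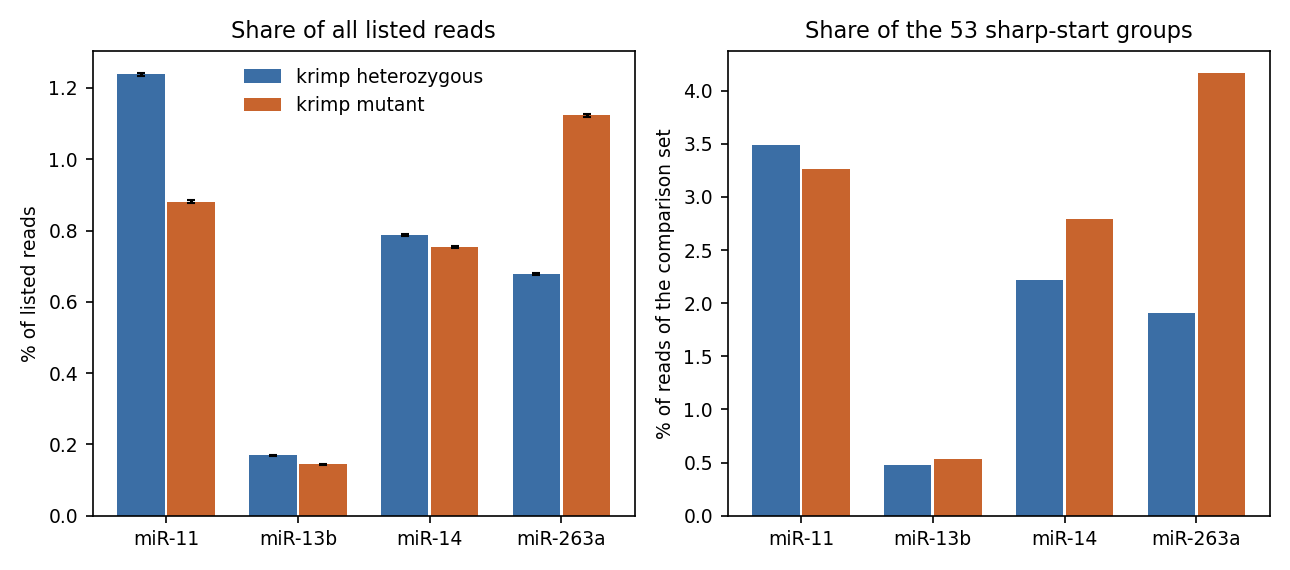
Levels of the 4 microRNAs in total small RNA of krimp heterozygous (blue) and krimp mutant (orange) ovaries, 1 library each, as a percentage of all listed reads (left, bars of exact 95% counting intervals) and of the reads of the 53 sharp-start groups (right). miR-263a is higher in the mutant on both scales, from 0.679% to 1.12% of listed reads, and miR-11 is lower on both, from 1.24% to 0.881%.

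miR-263a, which limits hid, had a share 1.66-fold higher in the mutant than in the heterozygote (95% interval 1.65 to 1.67). miR-11 had a share 1.41-fold lower (1.40 to 1.41) and miR-13b one 1.17-fold lower (1.15 to 1.19). miR-14 was closest to equal, at a mutant to heterozygous ratio of 0.957 (0.951 to 0.964). None of the 4 reached a 2-fold difference in share of listed reads. Among all 4536 groups listed in both total libraries, 20.9% were at least 2-fold lower and 39.7% at least 2-fold higher in the mutant. Among the 53 sharp-start groups, 9.43% were at least 2-fold lower and 9.43% at least 2-fold higher, with a median log2 ratio of -0.23. miR-13b, with a log2 ratio of -0.23, was itself that median. The sharp-start minimum of 10000 reads covers both total libraries together, so a group can enter through the library where it is high. Shares past 2-fold and ranks within the 53 groups depend in part on that rule.

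The sharp-start groups as a whole had a lower share in the mutant, and the directions of 2 microRNAs depend on whether this is taken into account. As a share of sharp-start reads, miR-263a went from 1.91% to 4.17%, a ratio of 2.18 (2.17 to 2.19), which is past 2-fold, as were 13.2% of the 53 groups on this scale. That call depends on the largest group of the set, which went from 7.24% to 3.48% of listed reads. Without it the miR-263a ratio was 1.99, and against the median ratio of the set it was 1.94, both just under 2-fold. miR-11 went from 3.49% to 3.27% of sharp-start reads, a ratio of 0.937 (0.931 to 0.942), or 0.856 without the largest group. miR-14 and miR-13b changed direction on this scale, to 1.26-fold (1.25 to 1.27) and 1.13-fold (1.11 to 1.14) higher in the mutant. Without the largest group these were 1.15-fold and 1.03-fold. miR-263a stood near the top of the group, with 47 of the other 52 sharp-start groups at a lower mutant to heterozygous ratio and 5 at a higher one. miR-11 had 15 at a lower ratio and miR-14 had 32. These libraries cannot tell a change of level within cells from a change in the kinds of cells in the ovary, since fewer cells of a type and less RNA per cell look alike in bulk RNA.

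**Figure D2:**
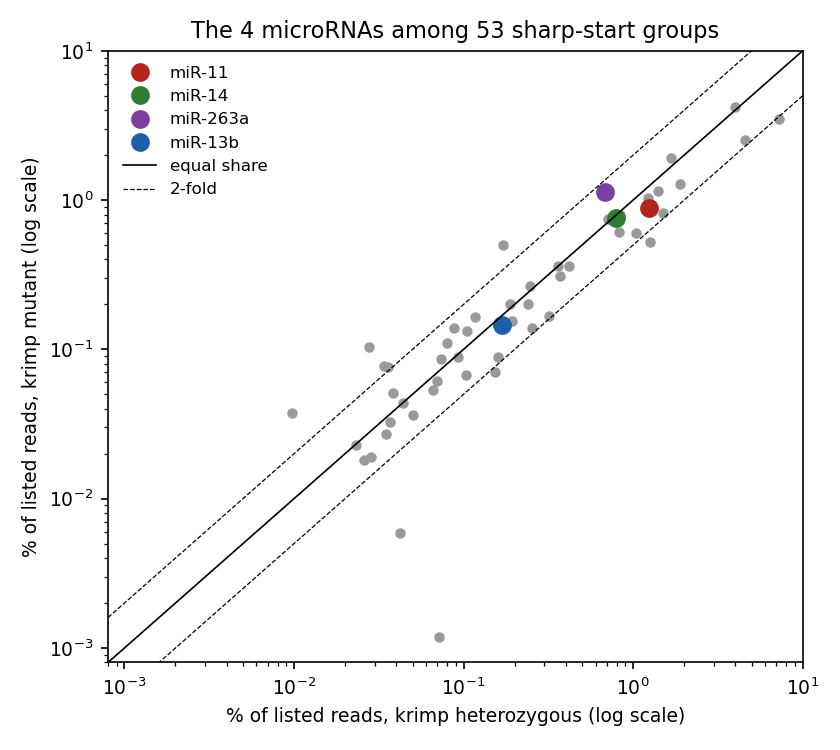
Share of listed reads in krimp mutant against krimp heterozygous total small RNA for the 53 sharp-start groups, on log axes, with 1 point per group, a solid line at equal share and dashed lines at 2-fold. The 4 microRNAs are coloured. miR-263a lies above the line of equal share with 5 groups at a higher ratio, and miR-14, miR-13b and miR-11 lie below that line, at ratios of 0.957, 0.855 and 0.711.

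Ratios between the microRNAs need no denominator. For each miR-263a read there were 1.82 miR-11 reads in control ovaries and 0.784 in mutant ovaries. miR-14 to miR-263a went from 1.16 to 0.671, and miR-13b to miR-263a from 0.249 to 0.129. The pairs without miR-263a changed less: miR-11 to miR-13b went from 7.31 to 6.09, miR-11 to miR-14 from 1.57 to 1.17, and miR-13b to miR-14 from 0.215 to 0.192. The smallest of these changes was between miR-13b and miR-14, which have different seeds.

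Besides miR-11 and miR-13b, the seed ATCACAG was carried by a further abundant group with more reads than miR-13b. In control total RNA 11 groups began with any base followed by this seed, and together they held 1.82% of listed reads. miR-11 made up 67.9% of these reads and miR-13b 9.28%. A single further group, which has no name here, made up 22.5%, and its share of listed reads went from 0.410% to 0.321% in the mutant, a ratio of 0.784 (0.776 to 0.791). The 3 abundant groups with this seed were lower in the mutant as a share of listed reads, at ratios of 0.711, 0.784 and 0.855. So were 66% of the 53 sharp-start groups, which include miR-11 and miR-13b but not the unnamed group. The summed ratio of the 53 groups was 0.759, so this direction is not particular to the seed. No other listed group of the total libraries had the seed of miR-14. The 5 other groups with the seed of miR-263a in heterozygous total RNA had 301 reads at most.

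The 5′ ends, which set the seed, hardly varied. Among reads holding bases 6 to 18 of miR-11, 99.6% in the heterozygote and 99.7% in the mutant began at the same base, and the remainder began 1 nt later. For miR-14 it was 99.9% in both libraries, and for miR-263a 99.7% and 99.8%. For miR-13b every listed read of that kind began at the same base, 42284 and 29940 reads.

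The 3′ ends varied more, and miR-11 is the member whose most common length differed between genotypes. The 21 nt class held 47.0% of miR-11 reads in heterozygous and 32.9% in mutant total RNA. The 22 nt class held 42.7% and 58.4%. Among the 53 sharp-start groups 15.1% had a different most common length in the 2 libraries. The mean length of miR-11 was 21.5 nt in the heterozygote and 21.7 nt in the mutant, a difference of 0.161 nt, and 5 of the other 52 groups had a larger rise. The median difference over the 53 groups was 0.0158 nt.

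The lower share of miR-11 lay mostly in the form that ends in gc. This 21 nt form had 145121 reads in the heterozygote and 59979 in the mutant, or 0.581% and 0.290% of listed reads, a ratio of 0.499 (0.494 to 0.504). The 22 nt form, which carries 1 more T, had 128068 and 104057 reads, or 0.513% and 0.503%, a ratio of 0.981 (0.973 to 0.989). The 20 nt form went with the 21 nt form, at 13665 and 5791 reads and a ratio of 0.512. As a share of listed reads, the T-ended form was thus near equal in the 2 genotypes. Both shorter forms were about 2-fold lower in the mutant on that scale. The summed sharp-start groups had a ratio of 0.759 on the same scale, so the T-ended form lay above that ratio and both shorter forms below it.

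For miR-13b the 23 nt form was nearest to equal as a share of listed reads, and most shorter and longer forms had lower ratios. Its 23 nt form, ending in gagtt, was 54.7% of its reads in the heterozygote and 62.5% in the mutant (23130 and 18711 reads). Its 22 nt form was 25.3% and 22.1%, and its 21 nt form 4.65% and 2.63% (1966 and 787 reads). As shares of listed reads the 23 nt form had a ratio of 0.976, the 22 nt form 0.746 and the 21 nt form 0.483. The ratio was thus lower with each base fewer, from 23 nt to 21 nt. The 20 nt form, with 144 and 126 reads, did not follow this order, at a ratio of 1.06 (0.825 to 1.35). Among longer forms the A-ended 24 nt form had a ratio of 0.726, the leading 25 nt form 0.650 and the leading 26 nt form 0.743. The U-ended 24 nt form had 1.39, and the 27 nt form, with 111 and 101 reads, had 1.10 (0.830 to 1.45). The summed sharp-start groups had a ratio of 0.759 on this scale, near the 22 nt form and below the 23 nt form. The mean length of miR-13b differed by 0.0243 nt, and 23 of the other 52 groups had a larger rise.

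miR-14 and miR-263a kept their most common lengths. miR-14 had 2 separate peaks, at 20 nt with 46.8% of reads in the heterozygote and 46.4% in the mutant, and at 22 nt with 39.2% and 40.3%. Only 5.25% and 6.44% of its reads were 21 nt long. Because no length below 20 nt is listed, shorter miR-14 reads cannot be seen. miR-263a reads peaked at 24 nt with 62.3% and 59.3%, followed by 23 nt with 25.6% and 26.8%. The mean lengths differed by -0.0290 nt for miR-14 and -0.0476 nt for miR-263a, mutant minus heterozygous. For miR-263a the ratio was above 1 in each of its 8 forms listed in both libraries, and the 24 nt form had a ratio of 1.57 (1.56 to 1.59), the 23 nt form 1.73 and the 22 nt form 1.85.

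**Figure D3:**
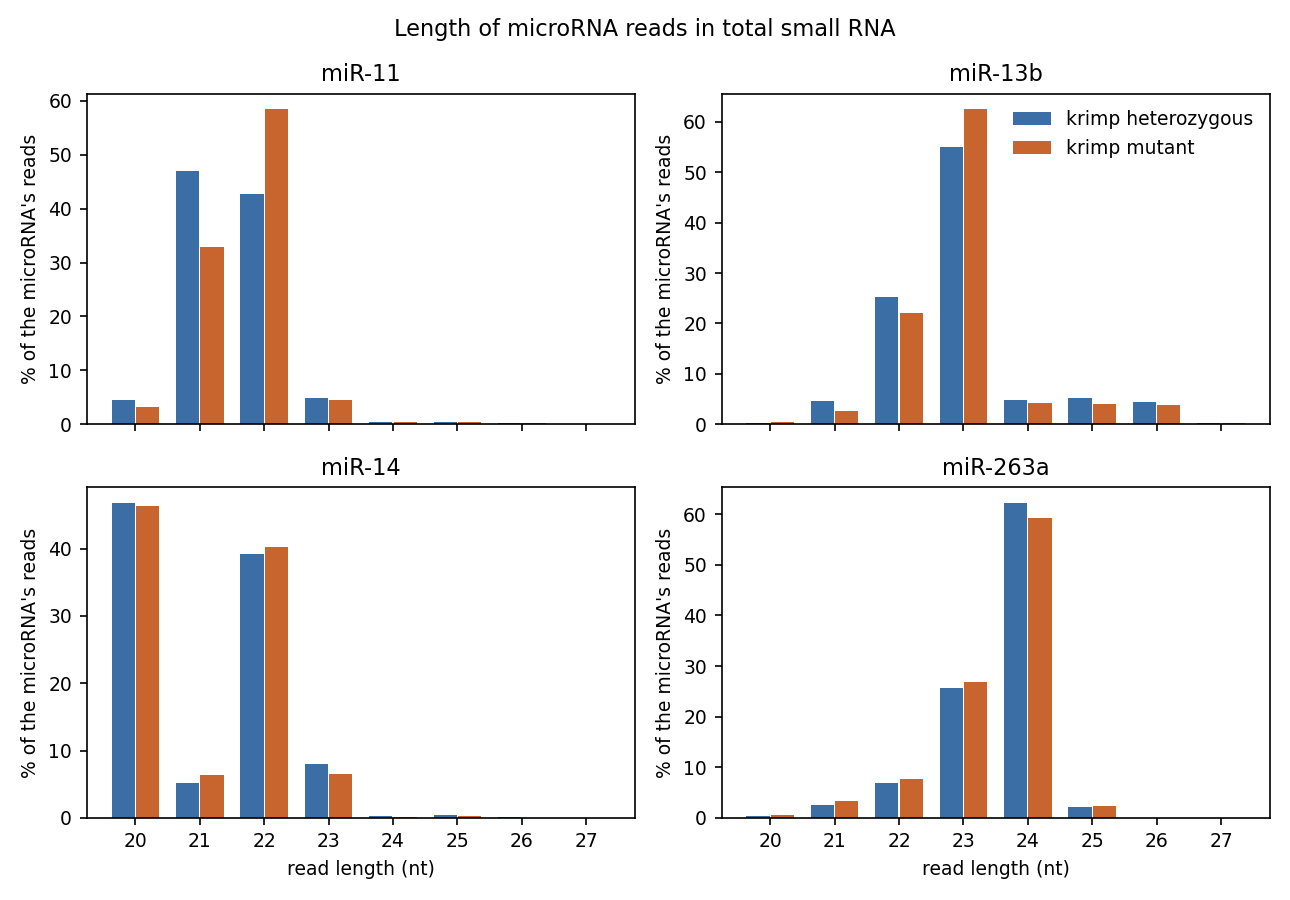
Length of the reads of each microRNA in total small RNA of krimp heterozygous (blue) and krimp mutant (orange) ovaries, as a percentage of that microRNA's listed reads, 1 library each. The miR-11 peak is at 21 nt in the heterozygote and 22 nt in the mutant, while miR-13b, miR-14 and miR-263a peak at 23, 20 and 24 nt in both.

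Relative to reads of the same length that end in A, reads that end in U were more frequent in the mutant library for all 4 microRNAs. The comparison uses pairs of forms that are identical but for a last U or A, with both listed in both libraries, of which the 4 microRNAs had 6. At 23 nt miR-14 had 11964 A-ended and 3330 U-ended reads in the heterozygote and 6260 and 3864 in the mutant, so U to A went from 0.278 to 0.617, a 2.22-fold difference (2.10 to 2.35). At 25 nt miR-263a had 2763 A-ended and 934 U-ended reads, then 3426 and 2046, a 1.77-fold higher U to A ratio in the mutant (1.61 to 1.94).

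The forms of miR-263a and miR-13b are shown because the pairs differ only in the last base.
miR-263a, 25 nt, A-ended: aATGGCACtggaagaattcacggga
miR-263a, 25 nt, U-ended: aATGGCACtggaagaattcacgggt
miR-13b, 24 nt, A-ended: tATCACAGccattttgacgagtta
miR-13b, 24 nt, U-ended: tATCACAGccattttgacgagttt

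The 24 nt pair of miR-13b had 1690 A-ended and 202 U-ended reads in the heterozygote and 1016 and 233 in the mutant, a 1.92-fold higher ratio (1.56 to 2.37). For miR-11 the ratio was 1.48-fold higher at 22 nt (1.39 to 1.57) and 1.38-fold higher at 23 nt (1.30 to 1.48). A higher ratio to A-ended reads was not confined to U there. Of miR-11 reads, the 22 nt forms ending in G, U, C and A had mutant to heterozygous share ratios of 1.80, 1.38, 1.17 and 0.934. The G-ended forms of miR-13b at 24 nt and miR-14 at 23 nt, with 144 and 138 heterozygous reads, were not listed in the mutant. The remaining pair, of miR-14 at 22 nt, was 2.07-fold higher (1.65 to 2.60) but rests on 281 and 111 A-ended reads. The same direction was common elsewhere: U to A was higher in the mutant in 81% of the 58 such pairs of the other sharp-start groups. The median change over those pairs, which came from 29 groups, was 1.26-fold, against 1.84-fold over the 6 pairs. Pairs of the same microRNA are not independent and the spread of the other pairs is not given, so the gap between the medians was not tested. Whether the last base is copied from the hairpin or added later was not determined here.

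**Figure D4:**
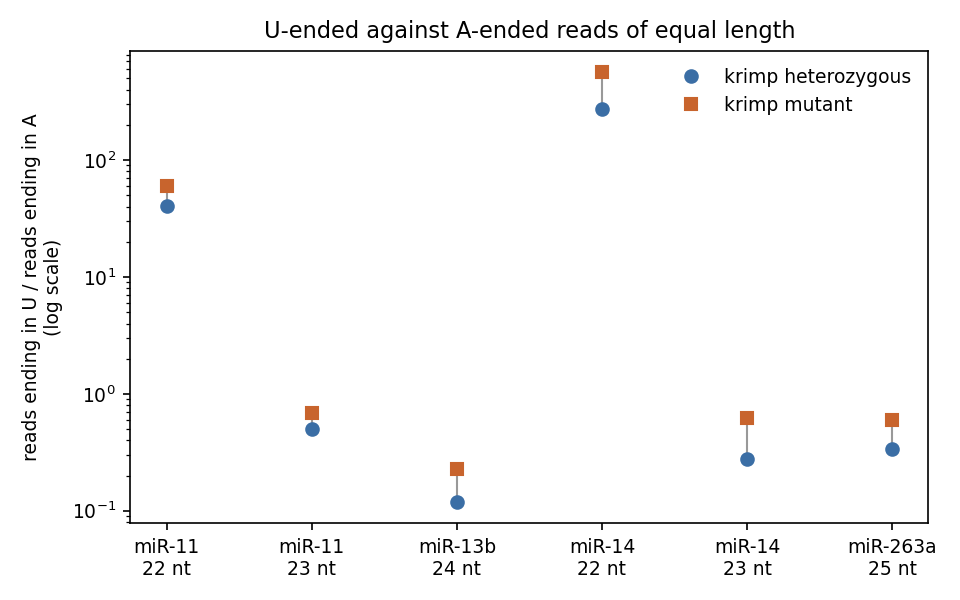
Ratio of U-ended to A-ended reads for the 6 pairs of forms that differ in the last base alone, on a log axis, in krimp heterozygous (blue circles) and krimp mutant (orange squares) total small RNA. The ratio is higher in the mutant in all 6 pairs, from 1.38-fold for miR-11 at 23 nt to 2.22-fold for miR-14 at 23 nt.

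Longer reads ending in at least 2 A were most frequent for miR-13b. They were 9.93% of miR-13b reads in the heterozygote and 8.17% in the mutant, in 3 forms of 25, 26 and 27 nt. For miR-11 they were 2.29% and 1.87% in 6 forms, and for miR-14 1.06% and 0.507%. The miR-14 share in the mutant would be 0.634% if each such form listed in the heterozygote alone had 99 reads in the mutant. That is still below the heterozygous share, but forms listed in neither library are left out of it. miR-263a listed none in the heterozygote and 123 reads in the mutant. The share was thus lower in the mutant for miR-11, miR-13b and miR-14. It was also lower in 53.6% of the 28 other sharp-start groups with such reads in the heterozygote. Groups enter that count only through the heterozygous library, which favours a lower share in the mutant, so no conclusion is drawn from it. Over the 27 other groups with such reads in both libraries, the median mutant to heterozygous ratio of the share was 0.944. The longest miR-13b form listed, with 111 and 101 reads, shows the run of A at the end.
miR-13b, 27 nt: tATCACAGccattttgacgagttaaaa

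Sequences 1 base away from the leading 18 nt of a member were few. miR-11 had 7 such sequences with 865 reads in the heterozygote, or 0.280% of its reads, and none listed in the mutant. miR-263a had 1 with 197 reads in the heterozygote and none listed in the mutant. No sequence 1 base away from miR-13b or miR-14 was listed in either total library. A sequence with up to 99 reads would not be listed, so none listed need not mean none present. miR-11 as a whole also had fewer reads in the mutant.

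The Piwi-family libraries of ovaries held almost none of these microRNAs. No form of miR-11 or miR-13b was listed in any of the 7 ovary immunoprecipitates. The 21 nt form of miR-11, at 0.581% of heterozygous total reads, was therefore at least 1104-fold lower in heterozygous Piwi RNA, at least 234-fold lower in Aub RNA and at least 459-fold lower in AGO3 RNA, taking 99 reads as the most an unlisted form could have. None of the 4 was listed in either krimp Aub library, nor in OregonR or aub mutant AGO3. For the less abundant miR-13b the limits are weaker. Against heterozygous total RNA its 23 nt form was at least 37.4-fold lower in heterozygous Aub RNA and at least 7.61-fold lower in OregonR AGO3 RNA. The Aub library of krimp mutant ovaries was grouped by its title and genotype, although its source name also says control.

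The few exceptions were 1 form each of miR-14 and miR-263a. The 22 nt form of miR-14 had 114 reads in heterozygous and 174 in mutant Piwi RNA. The 24 nt form of miR-263a had 110 and 257 reads there, and 270 in heterozygous AGO3 RNA. Relative to total RNA of the same genotype, the share of this 24 nt form was 722-fold lower in heterozygous Piwi, 407-fold lower in mutant Piwi and 122-fold lower in heterozygous AGO3. The mutant to heterozygous ratio in Piwi RNA was 2.80 for miR-263a (2.23 to 3.53) and 1.83 for miR-14 (1.43 to 2.33). In those libraries 42.1% of the 13107 groups listed in both were at least 2-fold higher in the mutant, and these counts lie close to the minimum of 100, so the Piwi values say little beyond low presence.

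miR-14 and miR-11 were both listed in the myc-AGO3 library of OSC, and there their lengths differed from those in ovaries. miR-14 had 3097 reads, or 0.793% of listed reads (0.766 to 0.822), rank 8 of 557 groups. miR-11 had 659 reads, or 0.169% (0.156 to 0.182), rank 80. That is 4.70 miR-14 reads per miR-11 read, against 0.636 in heterozygous and 0.856 in mutant ovary total RNA. Neither miR-13b nor miR-263a was listed, so the 24 nt form of miR-263a was at most 0.0254% of listed reads there. Its share in heterozygous ovary total RNA was 0.422%. For miR-13b the same limit is only 3.65-fold below the share of its 23 nt form in heterozygous ovary total RNA, 0.0926%. Its absence from the list therefore says less.

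The 22 nt form of miR-14 led in OSC, with 77.9% of reads (95% interval 76.4 to 79.4), while the 20 nt form that led in ovaries had 6.97% (6.10 to 7.93). For miR-11, 527 of the 659 reads were the 22 nt form, or 80.0%, and 132 were the 21 nt form. The ratio of 22 nt to 21 nt miR-11 reads was thus 3.99 in OSC, 1.78 in mutant ovaries and 0.909 in heterozygous ovaries. Tissue, knockdown and immunoprecipitation all differ between these libraries and cannot be told apart, and forms under 100 reads are missing from the OSC values. In the myc-Piwi and myc-Aub libraries of OSC no form was listed, where the most an unlisted form could reach was 0.0643% and 0.0853% of listed reads.

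**Figure D5:**
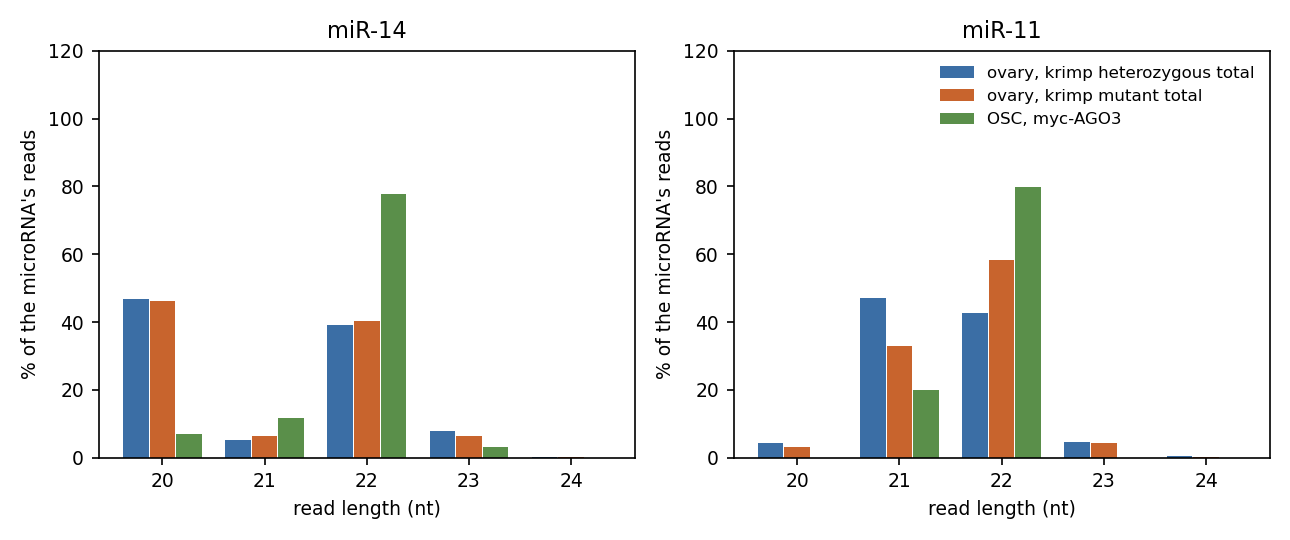
Length of miR-14 and miR-11 reads as a percentage of that microRNA's listed reads, in heterozygous (blue) and mutant (orange) ovary total small RNA and in the OSC myc-AGO3 library (green). The 22 nt form leads in OSC for both microRNAs, at 77.9% and 80.0%, and miR-14 in ovaries is led by 20 nt.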

How the data were processed

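The authors deposited whole-number read counts per distinct sequence, not normalized, and no file lists a count under 100. Small RNAs of 18 to 29 nt were size-selected, per the labels' protocols, and the build was dm3, per the submitters' processing notes. For the aligner, the trimmer and any filter, nothing is stated in the sources used here. Files were grouped by their labels.

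Members and measures were chosen with earlier results of these data known. No reference microRNA sequences were used: each member is the only 18 nt group whose heterozygous total reads equal the count recorded for it when the set was drawn up, and names rest on that and on general knowledge. The text names the 4 members. Opposite arms, hairpin matches and microRNAs of like ratio, also planned, were not analysed here, and groups that share a seed are left unnamed. The limits that define sharp-start groups, the U to A pairs and AA ends were set after the data were seen. Shares have Clopper-Pearson intervals, ratios exact conditional ones. Ratios and their intervals were tested on simulated counts that held counting error alone, with no listing minimum and no spread between libraries. Python 3.11.15, numpy 2.4.6, scipy 1.17.1 and matplotlib 3.10.9 were used.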

Additional observations from a re-analysis of the deposited data

How the results depend on the processing

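Results were recomputed with 1 mismatch in the leading 18 nt, with 99 reads for unlisted forms, and from forms listed in both libraries alone. The first 2 left all 4 log2 ratios of mutant to heterozygous total RNA within their counting intervals. The last moved the length difference of miR-14 from -0.0290 to -0.0209 nt and the other 3 by less. The other denominators and the single form were chosen after seeing the data. With sharp-start reads as the denominator the log2 ratios were -0.094 for miR-11, 0.17 for miR-13b, 0.33 for miR-14 and 1.12 for miR-263a. Without the largest sharp-start group they were -0.22, 0.041, 0.21 and 0.995, and against the median ratio of the sharp-start groups -0.26, 0, 0.16 and 0.95. With listed reads of 20 to 24 nt they were -0.63, -0.37, -0.20 and 0.59. From the most abundant form alone they were -1.003, -0.034, -0.077 and 0.65. In Piwi RNA the 20 to 24 nt denominator gave 1.29 for miR-14 and 1.90 for miR-263a. The cause was not tested. The mature reference sequence, the hairpin match and microRNA reads as the denominator were not run, for want of reference sequences. No paired analysis was possible because each group has 1 library.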
